A study of Mus musculus with 18 samples.

Results

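A group of 10 transcription factor genes that pattern the embryo was followed across 3 fat depots of the adult mouse. They are Tbx15, Tbx5 and Tbx1 of the T-box family, the homeobox genes Shox2, En1, Irx3, Irx5, Emx2 and Meox2, and the basic helix-loop-helix gene Tcf21. These 10 genes were chosen by name, with earlier results of these data known, out of 45151 gene symbols that occur in the files of all samples. Each was found in every file. The 18 RNA-seq libraries came from wild-type male C57BL/6J mice that were 16 weeks old and ate regular chow, with 6 libraries per depot. Inguinal white fat (iWAT) and epididymal white fat (eWAT) were measured as mature adipocytes, freed by collagenase digestion and taken from the layer that floats. Brown fat (BAT) was measured as whole frozen tissue, although 1 label calls it adipocytes, so that depot and preparation cannot be told apart in any comparison with BAT. None of these groups carried a transgene, a deletion or a drug treatment. Levels are given as RPKM, the reads of a gene scaled to the length of its row and to the depth of the library, with the mean ± SD of the 6 libraries of a depot.

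Transcription factors of these families bind DNA in the embryo in restricted regions along the body axes, and many cells keep part of that regional program after birth. Fat depots arise at different places from different progenitors, and adult fat cells and their precursors keep position-dependent transcription factors. Tbx15, Shox2 and En1 are known from such studies as genes of subcutaneous fat, and Tcf21 as a gene of visceral fat. Tbx1, Tbx5 and En1 are otherwise known for the pharyngeal arches, the heart with the forelimb, and the midbrain-hindbrain boundary.

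The libraries held 22929576 to 32141048 reads in iWAT, 26607733 to 34048018 in eWAT and 26706786 to 34512470 in BAT. Adipoq, the adipocyte hormone adiponectin, was found in all libraries at 258 to 2351 RPKM, and Ucp1, the uncoupling protein of brown fat, at 969 to 1509 RPKM in BAT and at no more than 5.76 RPKM in the white depots. The iWAT and BAT files count reads over genes with merged exons. The eWAT files count them over transcripts, of which the most-read one stood for the gene. The counting thus goes with the depot, and its part in a difference from eWAT cannot be told apart. Only Emx2 and Meox2 have a row of the same position and length in both kinds of file. Some libraries stood apart by markers of other tissues. The BAT sample numbered 12 had a summed level of 6 skeletal muscle markers of 1379 RPKM, against 0.550 to 123 RPKM in the other BAT samples. The eWAT samples numbered 14 and 15 had 82.2 and 67.8 RPKM of 5 epididymis markers, against 0 to 3.59 RPKM in the other eWAT samples. Sample 15 also had the highest macrophage markers of eWAT, 2013 RPKM over 6 markers against 143 to 483 RPKM in the other 5. In such bulk RNA, fewer cells of a type and less RNA per cell cannot be told apart.

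Most of these genes were low. A mean of at least 1 RPKM was reached by 4 of the 10 genes in iWAT (Meox2, Shox2, Tbx15 and Irx3) and by 2 in eWAT and 2 in BAT (Meox2 and Irx3 in both). In BAT, Tbx5 and Tbx15 lay just under this level with means of 0.990 and 0.969 RPKM. Reads of 9 genes were found in all 6 iWAT libraries, whereas only 6 genes had reads in all 6 eWAT libraries and 7 in all 6 BAT libraries. Each depot had its own order of levels. In iWAT the order of mean RPKM was Meox2, Shox2, Tbx15, Irx3, Irx5 with En1, Emx2, Tbx1, Tbx5 and Tcf21. In eWAT it was Meox2, Irx3, Tcf21, Emx2, Shox2, Irx5, En1, Tbx5, Tbx15 and Tbx1, and in BAT it was Meox2, Irx3, Tbx5, Tbx15, Shox2, Irx5, En1, Tbx1, Emx2 and Tcf21.

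**Figure D1:**
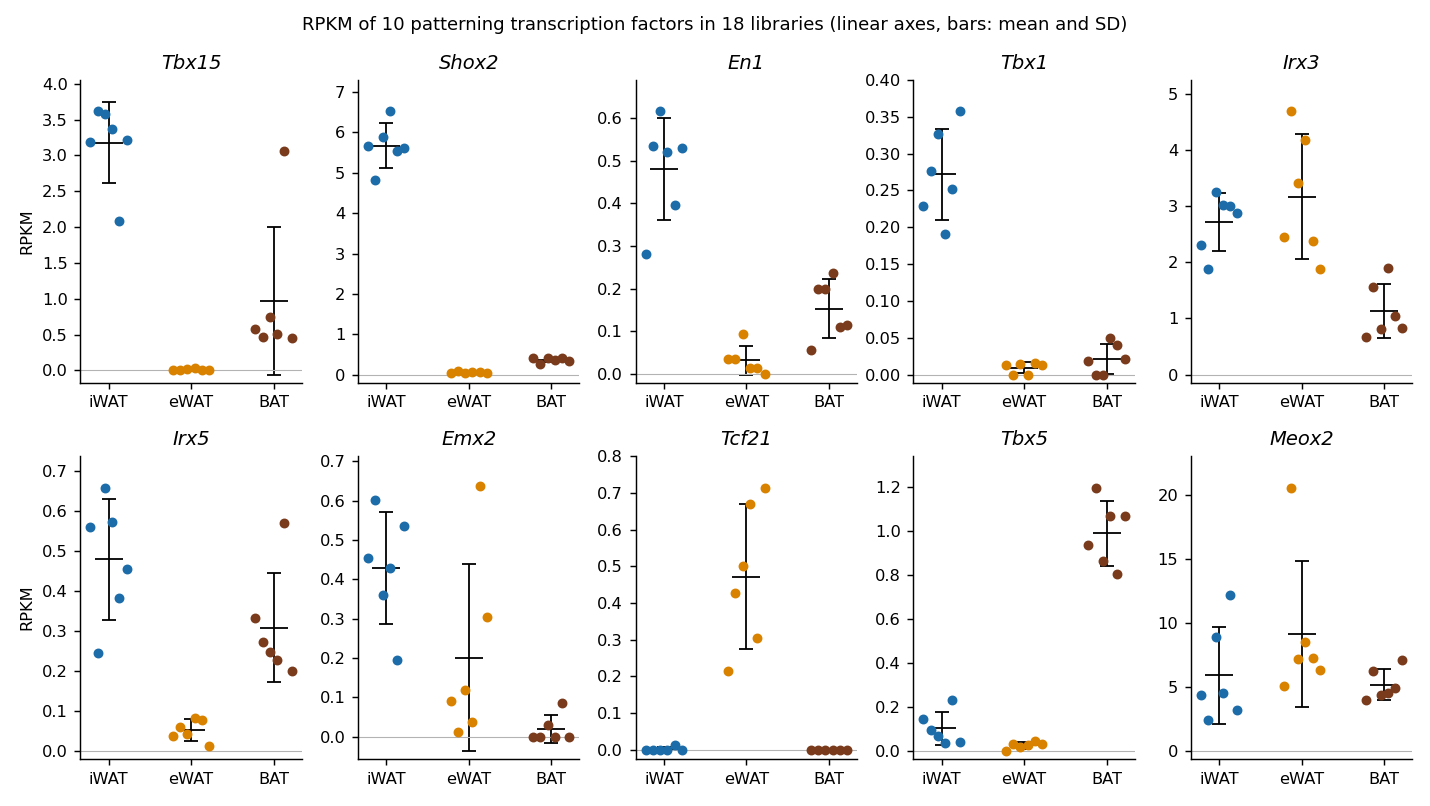
RPKM of the 10 genes on linear axes, with 1 panel per gene, 1 point per library (6 iWAT, 6 eWAT, 6 BAT) and bars for the mean and SD. Shox2, Tbx1, En1 and Emx2 sit higher in every iWAT library than in any BAT library, Tbx5 is highest in BAT at 0.806 to 1.20 RPKM, and Tcf21 has points above 0.0133 RPKM only in eWAT.

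Depots were compared with edgeR's quasi-likelihood test on read counts, with p-values adjusted over all rows tested (Benjamini-Hochberg, threshold 0.05). Of the 10 genes, 9 were tested, since Tcf21 did not have 10 reads in 6 libraries. Tbx1 met this filter only through its iWAT libraries, and so did Emx2 between iWAT and BAT. Between iWAT and BAT, 7 of the 9 passed, and 67.6% of the 19733 rows tested did so. Of these, 6 were higher in iWAT (34.0% of all rows were) and 1, Tbx5, was higher in BAT (33.6% of all rows). Between eWAT and BAT, 8 of the 9 passed, beside 70.3% of all 18383 genes tested. Irx3 and Emx2 were higher in eWAT (35.6% of all genes were), and 6 were higher in BAT (34.7% of all genes). With so many genes called, these counts are no result about the 9 genes as a group. Between the white depots, 25.6% of all 18383 genes passed, 13.4% as higher in iWAT and 12.3% as higher in eWAT. Here 6 of the 9 passed, and all 6 (Tbx15, Shox2, En1, Tbx5, Tbx1 and Irx5) were higher in iWAT. Tcf21, which the filter left out, had reads in every eWAT library and 1 read in all of iWAT. The genes were chosen with earlier results of these data known, so this count is no test of them as a group.

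The scaling shifts all genes together in some fits. With no TMM factors the median log2 fold change of all rows was 0.27 for iWAT against BAT and 0.36 for eWAT against BAT, compared with 0.01 and 0.03 with them, and 65.8% and 66.3% of all calls were then higher in the white depot, against 50.3% and 50.6%. With an offset for the length of the row, 69.3% of the calls between eWAT and BAT were higher in eWAT and 10.6% of those between iWAT and eWAT were higher in iWAT, against 50.6% and 52.2% without it, and the medians were 0.48 and -0.38. With no TMM factors (all 3 comparisons) and with the length offset (run for both comparisons with eWAT), the calls named above stayed, with the exception of Tbx1 between eWAT and BAT.

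**Figure D2:**
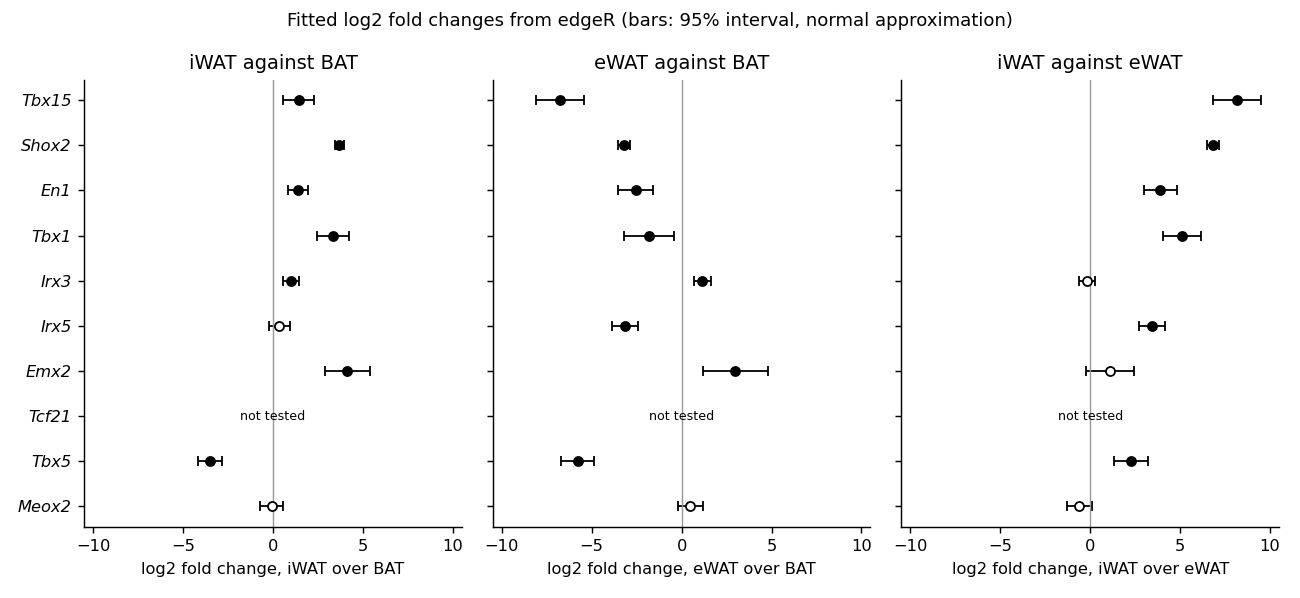
Log2 fold change of each gene (x axis, read counts fitted with edgeR) in 3 comparisons, with bars for the 95% interval (normal approximation). Filled points passed an adjusted p of 0.05 and open points did not. All filled points between iWAT and eWAT lie to the right of 0, from 2.25 for Tbx5 to 8.16 for Tbx15, and Tcf21 was not tested.

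Each depot had a gene that was highest there. The 250 bases before a transcript start of Tbx15 and Shox2 (highest in iWAT), Tcf21 (eWAT) and Tbx5 (BAT) are shown to compare the sequence beside these patterns. They were read 5′ to 3′ on the strand of the gene from mm9, at chr3:99057433-99057682 on the plus strand for Tbx15, chr3:66785694-66785943 on the minus strand for Shox2, chr10:22539966-22540215 on the minus strand for Tcf21 and chr5:120284422-120284671 on the plus strand for Tbx5. Capitals mark matches on either strand to 4 motifs. The TATA box was searched as TATAAA. The homeodomain core was searched as TAATTA. The T-box half-site was searched as AGGTGT. The E-box was searched as CANNTG. No match overlaps another in the windows shown. None of the 4 windows holds an exon of GENCODE vM1, and the Shox2 window lies inside the row of Rsrc1. The Tbx15 and Tbx5 windows lie inside the merged rows of their own genes, which begin further upstream at 99044304 and 120282307. The Tcf21 window overlaps the end of its merged row at 22539980.
Tbx15: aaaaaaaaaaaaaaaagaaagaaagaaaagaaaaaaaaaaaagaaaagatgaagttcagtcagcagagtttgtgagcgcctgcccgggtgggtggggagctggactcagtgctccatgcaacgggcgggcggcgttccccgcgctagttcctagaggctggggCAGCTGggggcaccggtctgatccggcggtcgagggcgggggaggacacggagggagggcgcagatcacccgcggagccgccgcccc
Shox2: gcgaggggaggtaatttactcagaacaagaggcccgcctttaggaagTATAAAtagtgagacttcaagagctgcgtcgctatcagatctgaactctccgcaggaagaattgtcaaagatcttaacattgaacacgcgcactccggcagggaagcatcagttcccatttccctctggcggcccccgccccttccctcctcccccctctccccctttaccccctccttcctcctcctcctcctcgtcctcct
Tcf21: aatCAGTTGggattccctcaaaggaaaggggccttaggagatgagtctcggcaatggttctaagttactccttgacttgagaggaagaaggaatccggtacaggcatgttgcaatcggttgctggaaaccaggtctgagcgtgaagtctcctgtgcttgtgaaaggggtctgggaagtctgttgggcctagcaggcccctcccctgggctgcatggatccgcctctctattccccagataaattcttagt
Tbx5: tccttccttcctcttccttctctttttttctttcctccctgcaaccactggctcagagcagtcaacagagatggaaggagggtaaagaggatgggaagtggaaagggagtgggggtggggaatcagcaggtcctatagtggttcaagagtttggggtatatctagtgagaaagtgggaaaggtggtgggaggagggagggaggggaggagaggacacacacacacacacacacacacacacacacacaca
The window of Tbx15 holds 19 CpG dinucleotides and that of Shox2 holds 11, whereas Tcf21 has 5 and Tbx5 has 0, beside a median of 9 over 20325 such windows. Shox2 holds TATAAA, which 12.1% of all windows hold, and Tbx15 and Tcf21 hold 1 E-box each, which 63.0% of all windows do. TAATTA (4.56% of all windows) and AGGTGT (11.4%) have no match in the windows of any of the 10 genes. Such matches are a description of these letters only.

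Shox2, a homeobox gene needed for growth of the proximal limb bones, showed the steadiest difference. It lies on the minus strand of mm9 chromosome 3, from 66775649 to 66785693. Its level in iWAT ran from 4.82 RPKM over a median of 5.63 to 6.52 RPKM (5.67 ± 0.550, SD, n = 6). In BAT it ran from 0.260 over 0.385 to 0.411 RPKM (0.366 ± 0.0569, n = 6) and in eWAT from 0.0446 over 0.0616 to 0.0888 RPKM (0.0630 ± 0.0180, n = 6). The 3 depots did not overlap. The read counts behind these levels were 416 to 638 in iWAT, 30 to 47 in BAT and 4 to 8 in eWAT. By edgeR, Shox2 was higher in iWAT than in BAT by 3.68 ± 0.13 (log2, SE) with an adjusted p of 4.204e-11, and higher in iWAT than in eWAT by 6.82 ± 0.17 with an adjusted p of 7.975e-15. It was lower in eWAT than in BAT, at -3.19 ± 0.17 with an adjusted p of 1.184e-11. Leaving out any 1 library moved the difference between iWAT and BAT only between 3.57 and 3.74. The first 382 bases of Shox2 overlap the start of Rsrc1 on the other strand, and the library kit is not stated to mark strand. Rsrc1 had 603 to 853 reads in iWAT and 260 to 381 in BAT, and the part of these reads in the count of Shox2 was not tested. The most-read Shox2 transcript in eWAT, AK032007, ends at 66785240 and does not reach Rsrc1.

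Tbx15, a T-box factor of the skeleton and of skeletal muscle, was high in iWAT and nearly absent from eWAT. Its row lies on chromosome 3, plus strand, from 99044304 to 99158183. The level in iWAT ran from 2.08 over a median of 3.30 to 3.62 RPKM (3.18 ± 0.567, n = 6). In eWAT, 8 reads were found in all 6 libraries together, with no read in samples 14 and 15 and a maximum of 0.0372 RPKM (0.0122 ± 0.0142, n = 6). Every iWAT library therefore lay far above every eWAT library. In BAT, 5 libraries lay at 0.454 to 0.742 RPKM, and the sample numbered 12 at 3.06 RPKM, inside the range of iWAT. That sample held 403 reads of Tbx15 whereas the other BAT samples held 57 to 85, and it is the sample with the muscle markers. All 6 muscle markers had reads in it. The part of this RNA in the level of Tbx15 was not tested.

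Between iWAT and eWAT, Tbx15 differed by 8.16 ± 0.67 on the log2 scale (adjusted p = 9.331e-08, edgeR), a fold that rests on the 8 eWAT reads. Relative to BAT it was higher in iWAT by 1.43 ± 0.44 (adjusted p = 0.01046, edgeR) and lower in eWAT, at -6.77 ± 0.67 (adjusted p = 4.827e-08, edgeR). Without the BAT sample numbered 12 the difference between iWAT and BAT was 2.23 with an adjusted p of 2.676e-07 by edgeR, and the difference between eWAT and BAT was -5.99 with an adjusted p of 2.694e-10. DESeq2 gave Tbx15 no adjusted p in any of the 3 comparisons, and its log2 fold changes were 1.43, -6.91 and 8.31.

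**Figure D3:**
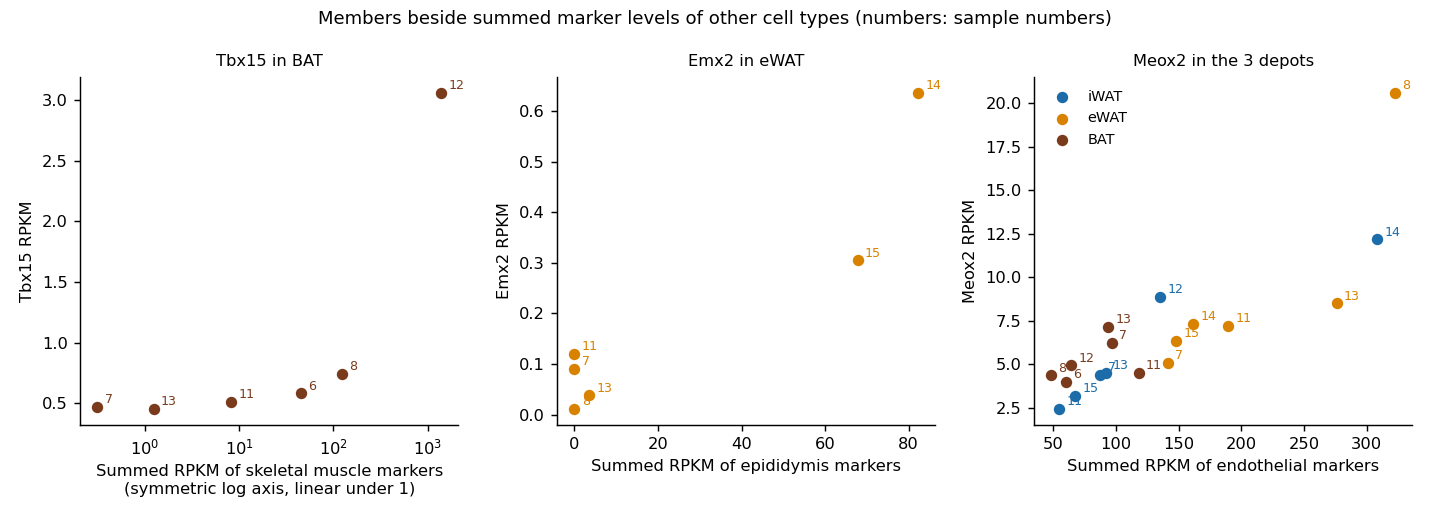
RPKM of a gene against the summed RPKM of marker genes of another cell type, with 1 point per library and its sample number beside it. The left panel (Tbx15 and 6 skeletal muscle markers in BAT, symmetric log x axis) shows sample 12 at 3.06 RPKM, the middle panel (Emx2 and 5 epididymis markers in eWAT) shows samples 14 and 15 at 0.637 and 0.305 RPKM, and the right panel (Meox2 and 6 endothelial markers in all depots) shows eWAT sample 8 at 20.6 RPKM.

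En1, the Engrailed homeobox factor that marks dorsal dermis and its derivatives in the trunk, had the same order of depots at lower levels. It ran from 0.282 over a median of 0.524 to 0.615 RPKM in iWAT (0.479 ± 0.120, n = 6) and from 0.0551 over 0.157 to 0.237 RPKM in BAT (0.153 ± 0.0695, n = 6). In eWAT it ran from 0 over 0.0246 to 0.0946 RPKM (0.0319 ± 0.0335, n = 6), which is 15 reads in all. The iWAT libraries overlapped neither of the other depots, while eWAT and BAT overlapped. En1 was higher in iWAT than in BAT by 1.39 ± 0.29 (log2, adjusted p = 0.0007235, edgeR) and than in eWAT by 3.90 ± 0.47 (adjusted p = 9.551e-06, edgeR). In eWAT it was lower than in BAT, at -2.56 ± 0.49 (adjusted p = 0.0001251, edgeR).

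Tbx1, the T-box factor of the pharyngeal arches that lies in the region deleted in DiGeorge syndrome, was found above a few reads in iWAT only. It had 15 to 34 reads in the iWAT libraries, 0 to 5 in BAT and 0 or 1 in eWAT, where 4 reads were found in all. As levels these were 0.191 to 0.357 RPKM with a median of 0.264 in iWAT (0.272 ± 0.0617, n = 6), 0.0215 ± 0.0205 in BAT and 0.0094 ± 0.0074 in eWAT. The iWAT range lay above both others. The difference was 3.33 ± 0.44 between iWAT and BAT (log2, adjusted p = 1.358e-05, edgeR) and 5.10 ± 0.55 between iWAT and eWAT (adjusted p = 2.743e-06, edgeR). Tbx1 passed the filter on reads only through its iWAT libraries, so neither test is independent of that filter. Between eWAT and BAT, whose ranges overlapped, the difference was -1.81 ± 0.71 with an adjusted p of 0.02964 by edgeR. With the sample number as a replicate block the adjusted p was 0.06265. That call was also lost when eWAT sample 8 or 13 or BAT sample 11 or 12 was left out, with values of -1.55, -1.58, -1.44 and -1.57. The highest exon of Tbx1 in iWAT had 1.99 to 6.13 times the reads per base of the whole row. At 15 to 34 reads per library, uneven coverage and sparse counting cannot be told apart.

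Irx3 and Irx5 are Iroquois homeobox genes of 1 cluster on mm9 chromosome 8, at 94322410 to 94325553 on the minus strand and 94881695 to 94885402 on the plus strand. Irx3, known for its part in adipocyte browning and body weight, was found in all 18 libraries. It ran from 1.88 over a median of 2.94 to 3.25 RPKM in iWAT (2.72 ± 0.517, n = 6), from 1.87 over 2.93 to 4.68 RPKM in eWAT (3.16 ± 1.11, n = 6) and from 0.674 over 0.932 to 1.90 RPKM in BAT (1.13 ± 0.487, n = 6). The white depots lay mostly above BAT but each overlapped it slightly. Irx3 was higher than in BAT by 1.01 ± 0.22 in iWAT (log2, adjusted p = 0.0009065, edgeR) and by 1.15 ± 0.24 in eWAT (adjusted p = 0.0003048, edgeR). With the sample number as a replicate block the first difference was 0.78 with an adjusted p of 0.05918 by edgeR. Between the white depots the difference was -0.19 ± 0.23 (adjusted p = 0.6009, edgeR), with an interval of -0.64 to 0.27.

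Irx5 had a different distribution. Its levels ran from 0.244 over a median of 0.508 to 0.659 RPKM in iWAT (0.479 ± 0.150, n = 6) and from 0.199 over 0.260 to 0.570 RPKM in BAT (0.308 ± 0.136, n = 6), but only from 0.0127 over 0.0521 to 0.0827 RPKM in eWAT (0.0524 ± 0.0267, n = 6). No eWAT library reached the lowest library of either other depot. By edgeR, Irx5 was lower in eWAT than in BAT, at -3.13 ± 0.37 (log2) with an adjusted p of 4.581e-07, and 3.44 ± 0.37 higher in iWAT than in eWAT with an adjusted p of 2.393e-06. Between iWAT and BAT it did not pass the test (0.36 ± 0.29, adjusted p = 0.2888, edgeR, interval -0.21 to 0.92). The BAT sample numbered 12 was again the highest of its group, with 51 reads against 17 to 33, and without it the difference was 0.60 with an adjusted p of 0.05465.

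The ratio of Irx3 reads to Irx5 reads within a library makes the contrast plain. It was 3.38 to 6.43 in iWAT (median 4.74), 1.49 to 6.85 in BAT (median 3.05) and 29.6 to 144 in eWAT (median 69.9). The eWAT libraries had only 1 to 6 Irx5 reads each, and the ratio of 144 in sample 15 rests on 1 Irx5 read. The lowest eWAT library lay above the highest library of both other depots. On the log2 scale the mean ratio differed by 4.45 between eWAT and BAT and by -3.77 for iWAT against eWAT, each with p = 0.00216 by a two-sided exact permutation test, the smallest p that 6 against 6 libraries can give, and 0.00325 adjusted over the 3 comparisons. Between iWAT and BAT the difference was 0.682 with an exact permutation p of 0.10606. These tests use the same Irx3 and Irx5 reads as the edgeR tests above and are not separate from them. The eWAT rows are the transcripts ENSMUST00000093312 (2345 bp, against 2363 bp for the merged row) for Irx3 and NM_018826 (2403 bp, against 2880 bp) for Irx5. Irx5 had 3 listed transcripts with 19 to 23 reads each in the 6 eWAT libraries together, so that no choice among them brought its count near that of the other depots.

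**Figure D4:**
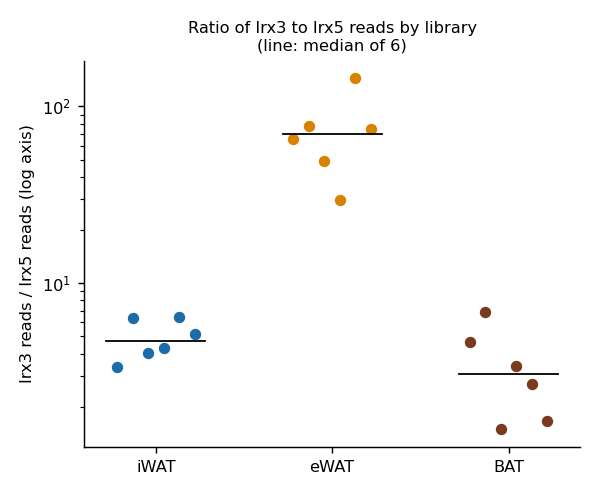
Ratio of Irx3 reads to Irx5 reads in each library (log axis) by depot, with a line at the median of 6 libraries. The eWAT libraries, with 1 to 6 Irx5 reads each, lie between 29.6 and 144. All iWAT and BAT libraries lie at or under 6.85.

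Emx2, a homeobox gene needed for the urogenital tract and the cortex, is on chromosome 19 at 59533180 to 59539847 (plus strand), in a row that is the same in all files. In iWAT it ran from 0.194 over a median of 0.441 to 0.601 RPKM (0.429 ± 0.143, n = 6), with 16 to 40 reads. In BAT it had 0 reads in 4 libraries, 2 reads in sample 8 and 7 reads in sample 12 (0.0192 ± 0.0350 RPKM, n = 6). In eWAT it ran from 0.0113 over 0.105 to 0.637 RPKM (0.200 ± 0.237, n = 6), and samples 14 and 15 with 44 and 26 reads stood above the other 4, which had 1 to 9. These are the samples in which all 5 epididymis markers had reads, against 0 to 3 of the 5 in the other eWAT samples, and the part of that RNA in Emx2 was not tested.

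The iWAT and BAT ranges of Emx2 did not overlap, and it was higher in iWAT by 4.14 ± 0.65 (log2, adjusted p = 6.243e-05, edgeR), or by 5.76 without the BAT sample numbered 12. For this comparison Emx2 passed the filter on reads only through its iWAT libraries, so the test is not independent of that filter. Between eWAT and BAT the difference was 2.99 ± 0.93 (adjusted p = 0.007996, edgeR). With the sample number as a replicate block it was 2.20 (adjusted p = 0.1293, edgeR), and without eWAT samples 14 and 15 it was 1.39 (adjusted p = 0.1707, edgeR), so this call rested on those samples. Without the BAT sample numbered 12 it was 4.62. Between the white depots the difference was 1.11 ± 0.68 (adjusted p = 0.2455, edgeR, interval -0.22 to 2.44). Without eWAT samples 14 and 15 it was 2.72 with an adjusted p of 0.008407 by edgeR, and without sample 14 alone it was 1.90 with an adjusted p of 0.04681. Emx2os, on the other strand with 54 bases between the rows, had 10 to 17 reads in iWAT, 0 to 11 in BAT and 0 to 4 in eWAT.

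Tbx5, the T-box factor of the heart and forelimb, was highest in BAT. Its row lies on chromosome 5, plus strand, from 120282307 to 120335227. The BAT libraries ran from 0.806 to 1.20 RPKM with a median of 1.002 (0.990 ± 0.147, n = 6), with 104 to 185 reads. In iWAT it ran from 0.0366 over 0.0821 to 0.230 RPKM (0.103 ± 0.0737, n = 6), and in eWAT from 0 over 0.0275 to 0.0477 RPKM (0.0252 ± 0.0158, n = 6), with 5 reads at most. All BAT libraries lay above all white fat libraries, while the white depots overlapped. By edgeR, Tbx5 was lower than in BAT in iWAT, at -3.49 ± 0.34 (log2) with an adjusted p of 5.595e-07, and in eWAT, at -5.78 ± 0.46 with an adjusted p of 2.535e-09. It was 2.25 ± 0.49 higher in iWAT than in eWAT, with an adjusted p of 0.00248 by edgeR. In iWAT the highest exon had 3.40 to 9.67 times the row's reads per base, against 1.65 to 2.58 in BAT. The iWAT libraries had only 4 to 33 reads each, so uneven coverage and sparse counting cannot be told apart there. Leaving out any 1 library kept every call of Tbx5, but limma on log2(RPKM + 1) did not call it between iWAT and eWAT (0.10, adjusted p = 0.09171).

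Tcf21, the basic helix-loop-helix factor of visceral mesoderm that is also known as capsulin, was found in eWAT. It is on chromosome 10, minus strand, and its merged row spans 22537069 to 22539980. The eWAT libraries had 9 to 29 reads each, 109 in all, or 0.215 to 0.715 RPKM with a median of 0.464 (0.472 ± 0.198, n = 6). In iWAT 1 read was found, in sample 14, and in BAT none. A count of 0 allows up to 3 reads, or 0.0367 to 0.0475 RPKM of the merged row in the BAT libraries, and such limits cover counting error only. Scaled to the reads of each group, Tcf21 was at least 36.4-fold higher in eWAT than in BAT if 3 reads over the BAT group are taken as the floor. The ratio of eWAT to iWAT was 95, or 17.1 to 3653 over the counting limits of the 1 iWAT read. These bounds leave out the counting error of the eWAT reads. With no filter on low counts, edgeR gave an adjusted p of 9.93e-07 for eWAT against BAT and 2.746e-05 for iWAT against eWAT. The opposite-strand row Gm10824, which spans the whole of Tcf21, had 0 reads in iWAT and BAT and 0 to 2 in eWAT.

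By counts, markers of macrophages and most tested markers of mesothelium were also higher in eWAT, while stromal progenitor markers went both ways. All 6 macrophage markers passed as higher in eWAT than in BAT and 5 of 6 as higher in eWAT than in iWAT (edgeR). Their summed level was 2013 RPKM in eWAT sample 15, which had the most Tcf21 reads (29), and 143 to 483 RPKM in the other 5, which had 9 to 25 Tcf21 reads. In iWAT it was 27.8 to 144 RPKM and in BAT 21.2 to 49.0 RPKM. Of 4 mesothelial markers tested, Upk3b, Krt19 and Upk1b passed as higher in eWAT than in either other depot, whereas Lrrn4 was lower in eWAT by counts. Upk3b, Krt19 and Upk1b met the filter on reads only through their eWAT libraries, so their tests are not independent of that filter. By RPKM, which scales to the length of the row, Lrrn4 was not lower in eWAT. It was at 15.3 ± 3.14 RPKM in eWAT, 12.7 ± 0.892 in BAT and 4.13 ± 0.384 in iWAT. Of 6 stromal progenitor markers, Dpp4 and Cd34 passed as higher and Pi16 and Pdgfra as lower in eWAT than in BAT (median log2 fold change -0.10), and between iWAT and eWAT 1 passed as higher in iWAT and 3 as higher in eWAT. Their part in the level of Tcf21 was not tested.

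Meox2, a homeobox gene of somites and of vascular endothelium, had the highest mean RPKM of the 10 genes in every depot, although its median in iWAT (4.45 RPKM) lay under that of Shox2 (5.63 RPKM), and did not pass the test in any comparison. It is on chromosome 12 at 37835133 to 37906115, plus strand, in a row that is the same in all files. It ran from 2.45 over a median of 4.45 to 12.2 RPKM in iWAT (5.94 ± 3.79, n = 6), from 5.09 over 7.27 to 20.6 RPKM in eWAT (9.18 ± 5.71, n = 6) and from 3.99 over 4.73 to 7.15 RPKM in BAT (5.20 ± 1.23, n = 6). All 3 ranges overlapped. The log2 differences were -0.07 ± 0.33 between iWAT and BAT (interval -0.72 to 0.57), 0.48 ± 0.36 between eWAT and BAT (interval -0.23 to 1.19) and -0.60 ± 0.36 between iWAT and eWAT (interval -1.31 to 0.11), with adjusted p-values of 0.8558, 0.2423 and 0.2392 by edgeR. Without iWAT sample 14 the last was -0.96 with an adjusted p of 0.04032. With the transcript of highest RPKM in eWAT in place of the most-read one for every gene, both comparisons with eWAT passed, at 0.90 against BAT (adjusted p = 0.02796, edgeR) and -0.98 between iWAT and eWAT (adjusted p = 0.02456, edgeR). The count of Meox2 itself was lower there, at 3973 reads in eWAT for AK142690 against 4093 for NM_008584. The TMM factors were computed anew from the changed rows, and their part in this shift was not tested.

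Within depots Meox2 was highest where endothelial markers were highest in both white depots. In iWAT the summed level of 6 endothelial markers was 308 RPKM in sample 14 and 135 RPKM in sample 12, where Meox2 was 12.2 and 8.89 RPKM, against 54.7 to 91.8 RPKM of markers and 2.45 to 4.53 RPKM of Meox2 in the other 4. In eWAT, sample 8 had 323 RPKM of these markers and 20.6 RPKM of Meox2, and sample 13 came next with 276 and 8.51 RPKM. In BAT the markers ran from 48.6 to 118 RPKM, and the library with the highest sum, sample 11, had 4.51 RPKM of Meox2, so the order was not the same there. The part of endothelial RNA in the level of Meox2 was not tested.

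Related genes of the same families and other patterning factors gave the setting of these results. Of 85 such genes, 35 were tested between iWAT and BAT, where 16 were higher in iWAT and 13 higher in BAT (82.9% called, beside 67.6% of all rows). Between eWAT and BAT, 38 were tested, with 11 higher in eWAT and 12 higher in BAT (60.5% called, beside 70.3% of all genes). Between iWAT and eWAT, 10 of 38 were higher in iWAT and 11 in eWAT (55.3% called, beside 25.6% of all genes). Their median log2 fold changes were 0.20, 0.03 and 0.00 (-0.0015), against 0.01, 0.03 and 0.00 (0.0028) for all genes. In the last comparison the calls of the related genes thus went both ways, and those of the 9 tested genes went to iWAT. Tcf21, the gene that the filter left out, was higher in eWAT when no filter was used (-5.79 for iWAT against eWAT, adjusted p = 2.746e-05, edgeR). With Tcf21 counted, the 10 genes went both ways too.

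Of the T-box paralogs, 6 of 14 were tested. Against BAT, 4 were lower and 1 higher in iWAT, and 5 were lower and 1 higher in eWAT. Tbx3, a limb and mammary T-box factor, was at 1.83 ± 0.142 RPKM in iWAT, 2.28 ± 0.558 in eWAT and 2.64 ± 1.86 in BAT, with log2 differences from BAT of -0.76 ± 0.28 and -0.96 ± 0.26 (adjusted p = 0.02615 and 0.002902, edgeR). Its ranges overlapped, at 1.68 to 2.01 RPKM in iWAT, 1.53 to 3.11 in eWAT and 1.53 to 6.41 in BAT. Of the Iroquois paralogs, 2 of 4 were tested, and both were higher in iWAT than in BAT and than in eWAT. Irx1 was at 1.20 ± 0.633 RPKM in iWAT, 0.0407 ± 0.0457 in eWAT and 0.0356 ± 0.0139 in BAT. Its level was 4.74 ± 0.39 higher in iWAT than in BAT (log2, adjusted p = 8.96e-08, edgeR). Irx1 had 37 to 166 reads in the iWAT libraries, 1 to 3 in BAT and 0 to 7 in eWAT. It met the filter on reads only through iWAT, so its tests are not independent of that filter. Irx2, named after its values were seen, was at 0.561 ± 0.194, 0.0404 ± 0.0309 and 0.0628 ± 0.0290 RPKM. Of the other paralogs, 2 of 6 were tested, and Tcf15, a helix-loop-helix factor of somites, was lower than in BAT in both white depots, at -1.04 ± 0.35 and -0.84 ± 0.35 (log2, adjusted p = 0.01855 and 0.04094, edgeR).

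Among 61 other patterning factors, 25 were tested between iWAT and BAT (13 higher in iWAT, 8 in BAT) and 28 in each comparison with eWAT (10 higher in eWAT and 5 in BAT, and 7 higher in iWAT and 10 in eWAT). Lhx8, a LIM homeobox gene, had the pattern of Tbx15 and Shox2, at 2.05 ± 0.862 RPKM in iWAT, 0.420 ± 0.213 in BAT and 0.0223 ± 0.0207 in eWAT, and it was 6.76 ± 0.53 higher in iWAT than in eWAT (log2, adjusted p = 5.555e-08, edgeR). Prrx1, a homeobox gene of limb mesenchyme, and Osr2, a zinc finger gene, were also higher in iWAT than in eWAT, by 2.45 ± 0.25 and 2.00 ± 0.30 (log2). Higher in eWAT than in iWAT were Eya2 (-3.19 ± 0.38), Nr2f1 (-1.97 ± 0.25), Foxc1 (-1.66 ± 0.24) and Pbx3 (-0.83 ± 0.19). Gata6, a GATA factor of mesoderm and endoderm, was higher than in BAT in iWAT (3.92 ± 0.26) and eWAT (3.72 ± 0.32), and so was Dmrt2 (2.36 ± 0.23 and 2.74 ± 0.24). Zic1, a zinc finger gene of the dorsal neural tube and somites that was named after its values were seen, was at 0.862 ± 0.240 RPKM in BAT, with at most 1 read in any white fat library.

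**Figure D5:**
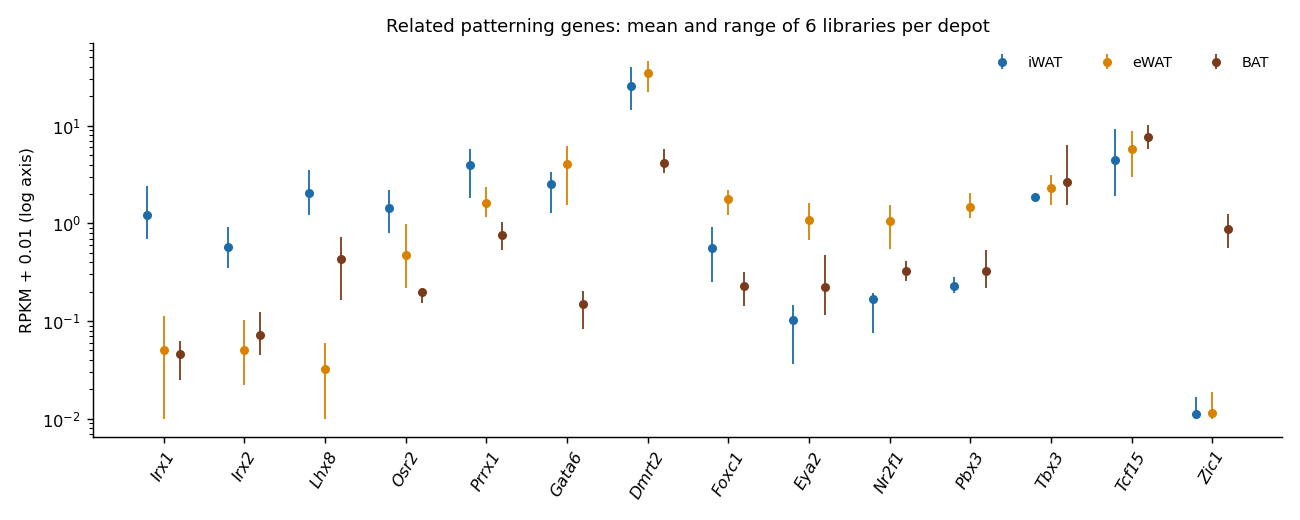
Mean RPKM + 0.01 (log axis) of 14 related patterning genes in iWAT, eWAT and BAT, with lines from the lowest to the highest of 6 libraries. Irx1, Irx2 and Lhx8 are highest in iWAT, Gata6 and Dmrt2 lie above BAT in both white depots, and Zic1 has a level of 0.862 RPKM in BAT alone.

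For the 4 genes with a mean of at least 1 RPKM in a depot, the nearest profile was sought among 13869 other genes, as the root mean square difference of log2(RPKM + 0.1) over the 18 samples after centring. Nearest to Tbx15 was AI606473 (0.649), with means of 1.70, 0.0119 and 0.372 RPKM in iWAT, eWAT and BAT. Nearest to Shox2 was Hoxa9, a posterior gene of the HoxA cluster (0.788), at 2.16, 0.101 and 0.178 RPKM. Nearest to Irx3 was Mtss1l (0.255), at 5.07, 6.28 and 2.73 RPKM, and nearest to Meox2 was Gimap6, a GTPase of the immunity-associated family (0.202), at 5.35, 8.27 and 4.91 RPKM. The next gene was almost as near for Tbx15 (0.651), Shox2 (0.797) and Meox2 (0.210), and for Irx3 it was at 0.297.

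Rows beside the genes were read for shared signal, and those that do not overlap a gene were chosen after their values were seen. Irx5 has the row 4933436C20Rik on the other strand at 1675 bases, with 0.386 ± 0.112 RPKM in iWAT, 0.496 ± 0.153 in BAT and 0.0459 ± 0.0408 in eWAT. Its order between the depots differs from that of Irx5 only in BAT being above iWAT. Wars2, the mitochondrial tryptophan tRNA ligase gene 1194 bases before Tbx15, was at 0.999 ± 0.0154 RPKM in iWAT, 1.09 ± 0.146 in eWAT and 1.36 ± 0.203 in BAT. Its reads were 139 to 194 in iWAT, 128 to 193 in eWAT and 208 to 305 in BAT, where Tbx15 had at most 4 reads in any eWAT library. Gm5563, 506 bases from Tbx5, had 0 to 2 reads in every library. Inside introns of Meox2 and on its strand lie the rows AK132246, with 14 to 37 reads in BAT, 1 to 21 in iWAT and 2 to 56 in eWAT, and AK138732, with 0 to 6 reads in any library.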

How the data were processed

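Libraries (NEBNext Ultra RNA kit, Illumina HiSeq) were analysed by the authors with the Genomatix Genome Analyzer on mm9. Per the labels, the submitters' processing notes name cutadapt (version 1.16) and HISAT2 (version 2.1.0). The authors deposited 1 table per library with the raw read count and the RPKM of every row. The deposited coverage signal columns (normalized expression of the highest exon and of the row) gave the exon ratios. iWAT and BAT files list 53445 merged genes, eWAT files 189660 transcripts. Reads were not collapsed by molecular identifiers.

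The 10 genes and the lists of related and marker genes were chosen with earlier results of these data known. The depot in the labels gave the groups. Counts were tested with edgeR (version 4.0.16; glmQLFit, glmQLFTest) in R (version 4.3.3), with TMM factors. Library sizes were the read totals that the RPKM values rest on, and a row needed 10 reads or more in 6 samples or more. The 12 iWAT and BAT samples were fitted on merged rows, and comparisons with eWAT on all 18 samples with 1 row per symbol. Standard errors came from the F statistic, and intervals are 95% intervals by the normal approximation. The code was tested on simulated data. The labels give no separate statement on the animals, but the same prefix and number recur in the titles of different depots, and the number was taken as that of the mouse, so that iWAT and BAT share 4 numbers, eWAT and BAT 4, and iWAT and eWAT 5. Deviations of same-numbered samples correlated with a mean of 0.0353 (iWAT and BAT, -0.0401 to 0.129), -0.0315 (eWAT and BAT, -0.154 to 0.0553) and -0.0912 (iWAT and eWAT, -0.321 to 0.148). If the number is not the mouse, p-values measure only the spread between these samples. Related genes were named if they passed the test with at least 1 RPKM in a depot compared, at most 5 per direction. Further genes covered by this rule are not reported here. The alternatives included limma (version 3.58.1) with a pseudocount of 0.1 or 1 on log2 RPKM, DESeq2 (version 1.42.0), no TMM, other filters, other transcripts, a length offset, identical rows, single samples left out and the number as a replicate block. Permutation tests and promoter windows (250 bases before the start of the first RefSeq transcript or of a transcript starting within 500 bases before it) used Python (version 3.11.15) and scipy (version 1.17.1).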

Additional observations from a re-analysis of the deposited data

Results flagged for a closer look

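Groups of 6 samples were searched for a sample far from the others (Dixon's test) where the mean was at least 0.1 RPKM. Of 20 groups searched 4 had one, and about 1 in 20 would by chance. Tbx15 was low in iWAT sample 14 at 2.08 RPKM, against 3.19 to 3.62 RPKM in the other 5. Tbx15 was high in BAT sample 12 at 3.06 RPKM, against 0.454 to 0.742 RPKM. Irx5 was high in the same BAT sample at 0.570 RPKM, against 0.199 to 0.332 RPKM. Meox2 was high in eWAT sample 8 at 20.6 RPKM, against 5.09 to 8.51 RPKM. BAT sample 12 is the one with the highest skeletal muscle markers of its depot, and iWAT sample 14 and eWAT sample 8 are those with the highest endothelial markers of theirs. The part of this RNA in these values was not tested.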

How the results depend on the processing

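Of 27 differences of single genes, 19 kept their direction and their side of the threshold under all alternatives that gave a p, and 17 of these were called. The 4 calls lost somewhere were Irx3 between iWAT and BAT, Tbx1 and Emx2 between eWAT and BAT, and Tbx5 between iWAT and eWAT. With the sample number as a replicate block, Irx3 (0.78, adjusted p = 0.05918), Tbx1 (-1.78, 0.06265) and Emx2 (2.20, 0.1293) lost their calls by edgeR, no other call of the 10 genes changed, and 11711, 11401 and 3153 genes passed in the 3 comparisons, against 13337, 12916 and 4713. Meox2 between iWAT and BAT, not called, turned to 0.20 with no TMM and 0.019 with limma and a pseudocount of 1, and ran from -0.41 to 0.10 when single samples were left out, with sign changes without iWAT samples 7 (0.0037), 11 (0.0967), 13 (0.0049) and 15 (0.0672) and BAT sample 13 (0.0076). Tbx1 between eWAT and BAT lost its call with no TMM (-1.52), no filter (-1.76), limma (-0.14 and -0.02) and the length offset (-1.40). It also did so with the transcript of highest RPKM for every gene (-1.39), although the row of Tbx1 itself, AK029096, was the same there. Tbx5 between iWAT and eWAT did so with limma and a pseudocount of 1 (0.10, adjusted p = 0.09171), while Emx2 there gained one with limma (1.09 and 0.27). With a mean of at least 1 RPKM required, 3, 3 and 2 of the genes passed. Of the identical rows, 3805 and 716 passed for eWAT against BAT and iWAT against eWAT, with 1 and 0 of the 2 genes that have such a row. A fold of at least 2 left 6345, 7154 and 1968 genes. Between iWAT and eWAT, limma called 9637 and 9483 genes (pseudocounts of 0.1 and 1), the transcripts of highest RPKM 10523 and the length offset 9657. In BAT, 4 genes reached 0.5 RPKM, 1 reached 2 RPKM, and 4 reached 1 RPKM after rescaling by TMM. Without single samples, 5 to 7, 7 to 8 and 5 to 7 of the genes passed. The cause of these changes was not tested. Low counts limit Tbx1, Tcf21 and the eWAT values of most genes: once an iWAT sample was left out, Tbx1 in every comparison and Emx2 between iWAT and BAT could not be fitted, since the filter asks for 6 samples.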
